A study of Mus musculus with 9 samples.

Results

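The core activators of the circadian clock, Clock, Arntl, Arntl2 and Npas2, were followed in mouse liver. Members were all probe sets that the platform annotation assigns to 1 of these 4 symbols alone. The annotation named 1 probe set each for Clock, Arntl and Arntl2, so 3 of the 19938 genes tested were members, and Npas2 was not analysed here. RNA came from 3 groups of 3 mice, with 1 Affymetrix array per animal. Wild-type mice were C57BL/6J. The mutant mice carried Clock-D19, a mutation that changes splicing of Clock so that an exon is skipped and the CLOCK protein binds its partner but activates transcription poorly. In the rescue group, Clock-D19 mice were given wild-type Clock in the pLIVE vector, 35 µg of DNA, through the tail vein, a hydrodynamic route that loads mainly hepatocytes. The labels place this injection at week 10. The strain background of the mutants, the promoter in the plasmid, the sex of the animals and any control injection are not stated in the labels. All groups ate a diet with 45% fat from 10 weeks of age for 5 weeks, under 12 h of light a day, and were killed 10 h after lights on.

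CLOCK and BMAL1, the product of Arntl, are bHLH-PAS proteins that pair and bind E-box sequences. They switch on the Per and Cry genes, whose products block the pair, and Nr1d1 and Nr1d2, which encode the REV-ERB receptors. REV-ERB receptors repress and ROR receptors activate Arntl through shared ROR elements, and Clock, Npas2 and Nfil3 are under like control. NPAS2 can take the place of CLOCK, and BMAL2, the product of Arntl2, is a close relative of BMAL1. In mouse liver, Arntl RNA is lowest late in the light phase, near the hour sampled here. All groups were sampled at that same hour. A shift in the timing of a rhythm, or its loss, was therefore not tested. For rhythmic genes, neither can be told apart here from a change of level, and differences below refer to that hour alone.

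On the mouse assembly GRCm38.p6, Clock lies on chromosome 5 (76209868 to 76305603), Arntl on chromosome 7 (113178471 to 113314126), Arntl2 on chromosome 6 (146794729 to 146833529) and Npas2 on chromosome 1 (39193702 to 39363240). RefSeq promoter windows, which run from 250 bases before to 50 after an annotated start, were searched for the ROR-element core AGGTCA, because the receptors that act on it are described below. It was found once in 1 of 3 Clock windows and once in 1 of 2 Arntl windows, and in no window of Arntl2 or Npas2. Of 32851 windows of this length, 16.3% hold AGGTCA on either strand. The windows of each member lie inside the gene span given above and leave out its 5′ end. They are numbered here from the 5′ side. The 30 bases around each match are shown 5′ to 3′ on the strand of the gene, with the match in capitals. In Clock it is the reverse complement of the core and starts 119 bases before the annotated start of window 3, at chr5:76303604-76303633 on the minus strand. In Arntl it starts 31 bases after the annotated start of window 2, at chr7:113207530-113207559 on the plus strand.
Clock: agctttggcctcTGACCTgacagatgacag
Arntl: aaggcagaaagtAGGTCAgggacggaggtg

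The E-box CACGTG, the related CACGTT and the D-box TTATGNAA, searched on both strands, were in none of the 7 windows of the 4 genes, against 7.15%, 4.68% and 3.38% of all windows. The 250 bases before the annotated start of window 1 are shown for Clock and for Arntl, because these genes differed between groups. They are chr5:76304793-76305042 on the minus strand and chr7:113207215-113207464 on the plus strand. The Clock stretch is 76.4% G and C and the Arntl stretch 58.8%.
Clock: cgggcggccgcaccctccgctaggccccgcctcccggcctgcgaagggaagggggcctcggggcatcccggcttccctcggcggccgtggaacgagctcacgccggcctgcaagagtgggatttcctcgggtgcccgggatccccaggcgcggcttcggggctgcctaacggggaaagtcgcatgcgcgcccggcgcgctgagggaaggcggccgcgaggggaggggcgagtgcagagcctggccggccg
Arntl: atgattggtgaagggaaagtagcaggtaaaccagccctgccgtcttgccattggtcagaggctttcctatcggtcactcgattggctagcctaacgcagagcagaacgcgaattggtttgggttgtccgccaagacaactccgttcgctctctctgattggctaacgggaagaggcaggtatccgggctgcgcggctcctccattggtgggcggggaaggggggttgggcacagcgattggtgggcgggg

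Values are log2 expression per probe set, and a difference of 1 is a 2-fold change. A gene was called at an adjusted p under 0.05 (limma, Benjamini-Hochberg over all genes). By that rule 15.4% of genes were called between mutant and wild type, 3.81% between rescue and mutant, and 2.28% between rescue and wild type. Of the genes called between mutant and wild type 1270 were higher in mutant and 1798 lower (610 and 2272 with each array centred on its median). Between rescue and mutant 520 were higher in rescue and 239 lower (780 and 126 with centring). In bulk liver, fewer cells of a type and less RNA per cell cannot be told apart. In mutant against wild type 9.02% of all genes fell and 6.37% rose. Both shares were higher among genes outside the dimmest 40%, where 1946 fell and 1423 rose when these were fitted alone. Of 21 endothelial markers, all outside the dimmest 40%, 12 fell in this comparison. The log2 of their summed linear signal was 12.37 to 12.55 in wild type, 11.85 to 11.90 in mutant and 12.03 to 12.35 in rescue. Sums of the other marker lists are given in the same way, and the brightest markers weigh most in them. Of 19 Kupffer cell and macrophage markers 11 fell, with sums of 12.26 to 12.71, 11.08 to 11.23 and 11.46 to 11.81. Of 19 markers of stellate cells and fibroblasts, 4 fell in mutant while 1 rose (12.30 to 12.43, 12.02 to 12.09 and 12.24 to 12.39). In rescue against wild type 7 of the 19 Kupffer cell and macrophage markers fell, where 1.35% of all genes fell. The sum of 13 lymphocyte markers, 3 of them outside the dimmest 40% of genes, was 9.16 to 9.28 in wild type, 9.06 to 9.27 in mutant and higher in rescue, at 9.45 to 9.51. Of these 13, only 1 rose in rescue against mutant and 1 against wild type, where 2.61% and 0.928% of all genes rose. The highest differences were 1.29 and 1.20, while the medians of the 13 were -0.01 and -0.04. Of 15 hepatocyte markers 2 rose in mutant against wild type, and their sums overlapped between the groups (16.00 to 16.15, 16.13 to 16.26 and 16.02 to 16.23). The part of these markers in the results below was not tested.

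Clock, which encodes the DNA-binding partner of BMAL1, was higher in mutant liver than in wild type, with the rescue mean between them, where 6.37% of all genes rose in mutant. Its log2 level was 9.97, 9.24 and 9.30 in wild type, 10.88, 9.89 and 10.55 in mutant, and 10.33, 9.41 and 9.62 in rescue. The lowest mutant array lay below the highest wild-type array, so these groups overlapped; for 35.7% of all genes they did not. Clock rose by 0.94 ± 0.26 (SE; 95% confidence interval 0.38 to 1.50) in mutant against wild type, a 1.91-fold change with a limma adjusted p of 0.0266 (n = 3 per group). Rescue against mutant was -0.66 ± 0.26 (interval -1.21 to -0.10, adjusted p = 0.168), and rescue against wild type was 0.28 ± 0.26 (interval -0.28 to 0.84, adjusted p = 0.719). The rise in mutant was called in 9 of 15 alternative settings. It was not called with a trended and robust prior (adjusted p = 0.139), with all probe sets fitted together (0.098), or without wild-type replicate 2 (0.0864) or 3 (0.103) or mutant replicate 1 (0.108) or 3 (0.0715). Clock has 1 probe set in the annotation used here, so RNA from the mutated locus and from the plasmid are not separated, and the value checks no group label.

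**Figure D1:**
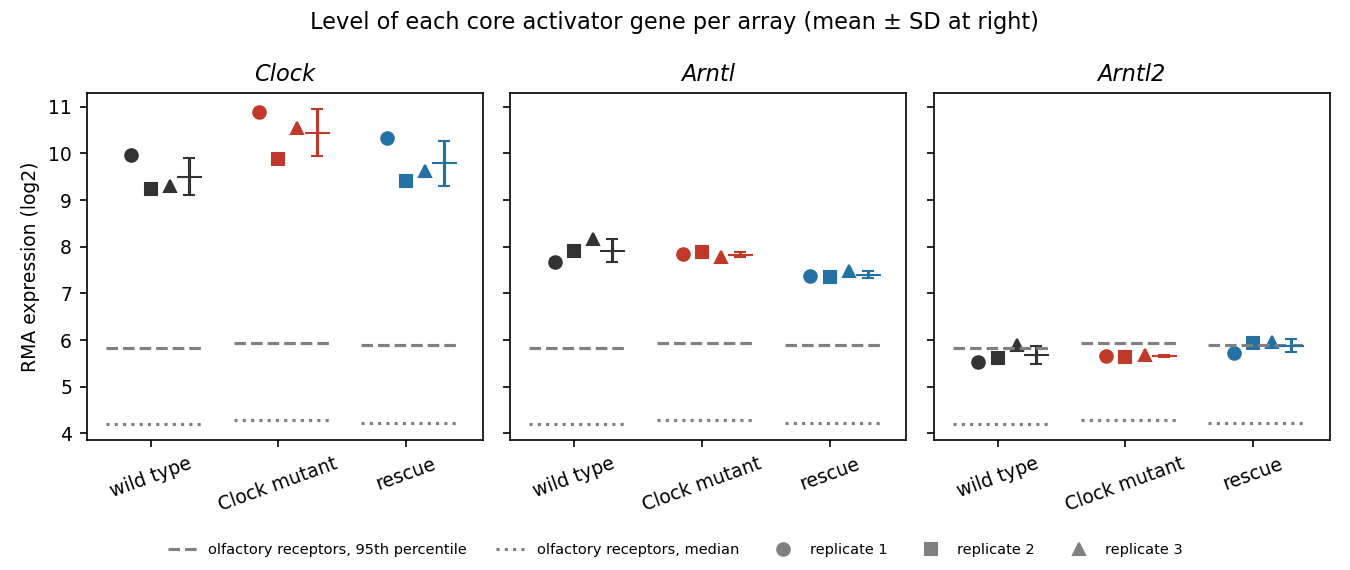
RMA expression on the log2 scale (vertical axis) of Clock, Arntl and Arntl2 in each of the 9 arrays by group; symbols mark replicates 1 to 3, bars at the right of each group the mean ± SD, and grey lines the median and 95th percentile of olfactory receptor genes. Arntl in rescue (7.34 to 7.48) lies below all arrays of the other groups, and the Arntl2 group means lie under the 95th percentile line.

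Clock varied among arrays of the same group more than nearly all genes. Its SD within groups, pooled over the groups, was 0.47 on the log2 scale, at percentile 99.7 of all genes, against a median of 0.14. That of Arntl was 0.15 and that of Arntl2 0.14. The arrays numbered 1 lay 0.47, 0.44 and 0.54 above their group mean of Clock in wild type, mutant and rescue. Those numbered 2 lay at -0.26, -0.55 and -0.38 from it, and those numbered 3 at -0.20, 0.11 and -0.17. Deviations within a group cancel out in sum, so they are not independent. The deviations of Clock from its group mean were shared by other genes on the same arrays. Among 11474 genes outside the dimmest 40%, 267 (2.33%) had deviations with a Pearson r above 0.9 with those of Clock over the 9 arrays, against 22 for Arntl and 26 for Arntl2. The arrays share 1 normalization, so these r values are a description and were not tested.

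The genes whose levels over all 9 arrays were most like those of Clock were Uqcrh, a subunit gene of respiratory complex III (r = 0.988), the SNARE gene Vamp8 (0.984), the proton pump gene Atp6v1e1 (0.984), Ergic3, of the pathway from endoplasmic reticulum to Golgi (0.984), and the peroxisomal membrane gene Pxmp2 (0.982). With group means removed their r with Clock was 0.975 to 0.988. Their differences between mutant and wild type were 0.54 for Uqcrh, 0.80 for Vamp8, 0.49 for Atp6v1e1, 0.47 for Ergic3 and 0.38 for Pxmp2. They are given with no test, since a likeness over all arrays includes the group difference of Clock. The genomic span of these 5 genes was 5447 to 27455 bases, a range that holds the median over all genes, 17737 bases. Clock spans 95736 bases, at percentile 87.8 of the genes.

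Arntl, which encodes BMAL1, was lower in rescue liver than in wild-type liver. Its log2 level was 7.68, 7.90 and 8.16 in wild type, 7.84, 7.88 and 7.78 in mutant, and 7.37, 7.34 and 7.48 in rescue. All 3 rescue arrays lay below all 6 others, while wild type and mutant overlapped. Arntl fell by 0.52 ± 0.12 (SE) in rescue against wild type (interval -0.77 to -0.26, limma adjusted p = 0.037, n = 3 per group), a 1.43-fold lower level. In rescue against mutant the difference was -0.44 ± 0.12 (interval -0.69 to -0.18, adjusted p = 0.0583), short of the threshold. In mutant against wild type it was -0.08 ± 0.12 (interval -0.34 to 0.18, adjusted p = 0.679). Values of rescue and wild type did not overlap for 19.5% of all genes, nor those of rescue and mutant for 25.7%. The comparisons with wild type and with mutant share the rescue arrays.

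The call of Arntl depended on the setting in both comparisons. Against wild type it was made in 7 of 15 alternatives, and the difference stayed between -0.63 and -0.39. It was not called with quantile normalization repeated (adjusted p = 0.0511), with all probe sets (0.119), with the 6 arrays alone (0.0632), or without wild-type replicate 2 (0.0829) or 3 (0.154) or rescue replicate 1 (0.105), 2 (0.116) or 3 (0.0797). Against mutant it was called in 5 of 15, with a difference between -0.48 and -0.37. These were without the dimmest 40% of genes (adjusted p = 0.0311), quantile normalization repeated (0.0392), a trended and robust prior (0.032), the trend on genomic span removed (0.0459) and the 6 arrays alone (0.0477).

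**Figure D2:**
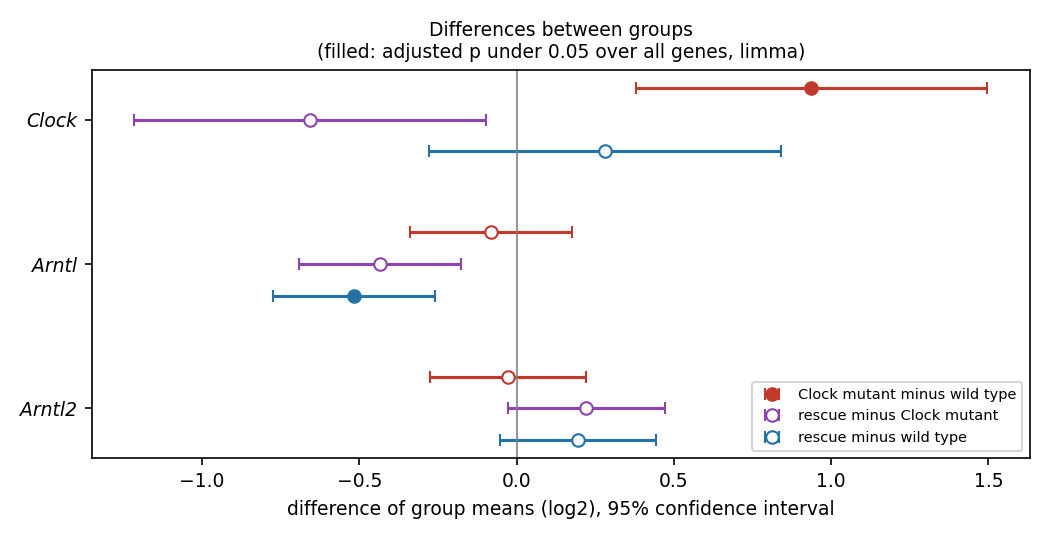
Difference of group means on the log2 scale (horizontal axis) for Clock, Arntl and Arntl2 in the 3 comparisons, with the 95% confidence interval of limma as bars; filled points have an adjusted p under 0.05. Filled points are Clock in mutant against wild type (0.94) and Arntl in rescue against wild type (-0.52).

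**Figure D3:**
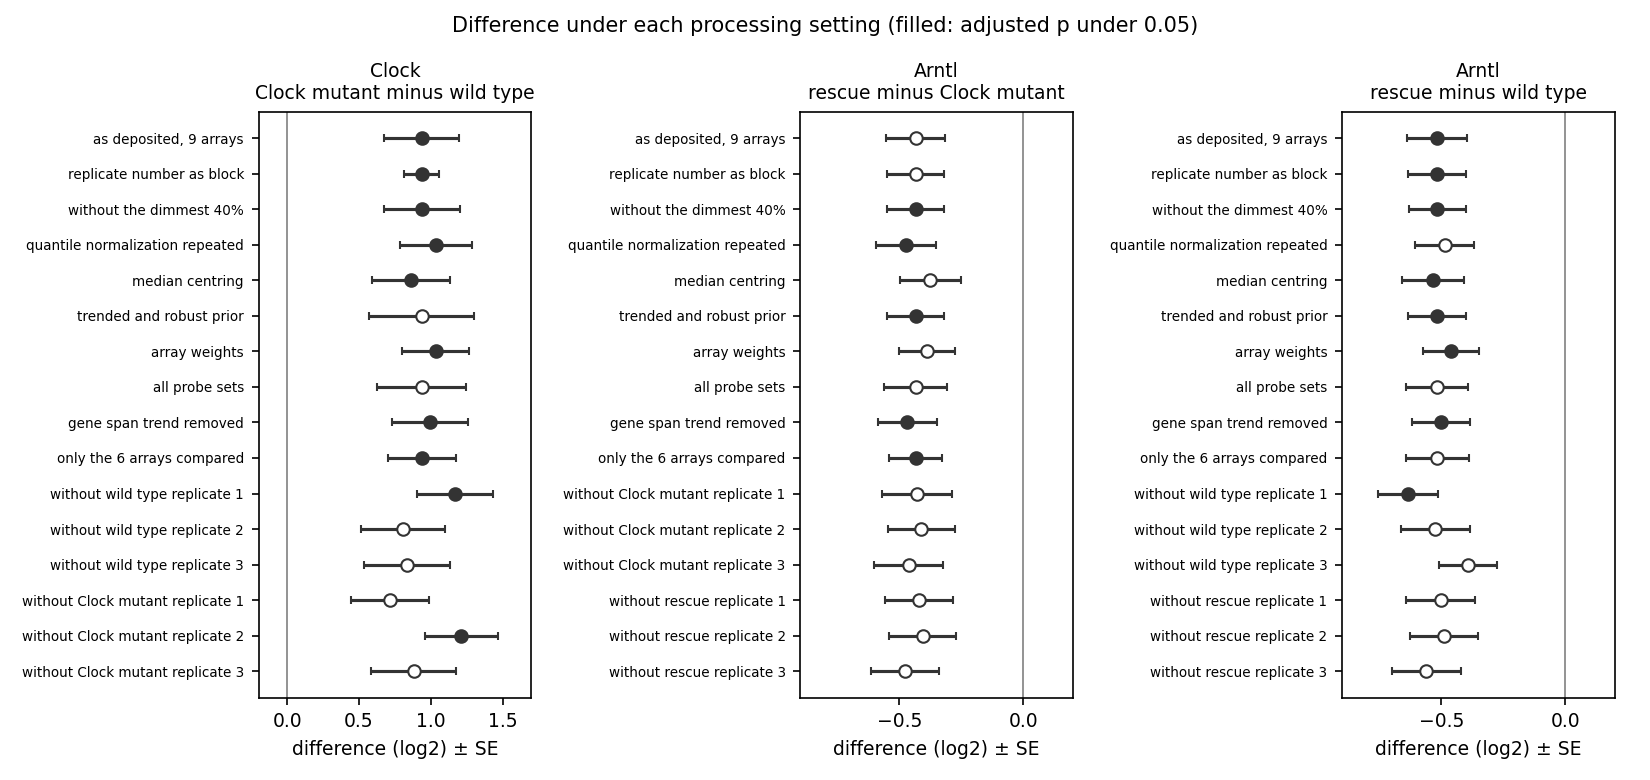
Difference on the log2 scale ± SE (horizontal axis) under the deposited values and each of 15 alternative settings, for Clock in mutant against wild type and for Arntl in both comparisons of rescue; filled points have an adjusted p under 0.05. The sign of these 3 differences was the same under every setting shown, whereas the call was lost or gained in several.

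The genes most like Arntl over the 9 arrays were the sulfotransferase gene Sult1b1 (Pearson r = 0.954), Ndufa12, of respiratory complex I (0.949), Smim19 (0.932), Mettl15 (0.917) and the acyl-CoA thioesterase gene Acot13 (0.912). With group means removed their r was 0.641 to 0.827. Their differences between rescue and wild type were -0.55 for Sult1b1, -0.20 for Ndufa12, -0.44 for Smim19, -0.24 for Mettl15 and -0.49 for Acot13, given with no test because the genes were chosen for the pattern of Arntl. Only 8 genes of 11474 had an r above 0.9 with Arntl, against 204 for Clock and 1 for Arntl2. Between the members themselves r was -0.10 for Clock and Arntl, -0.43 for Clock and Arntl2 and -0.29 for Arntl and Arntl2.

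Arntl2, which encodes BMAL2, was dim in all groups. Its log2 level was 5.53, 5.62 and 5.90 in wild type, 5.67, 5.63 and 5.68 in mutant, and 5.73, 5.95 and 5.97 in rescue. The group means of 5.69, 5.66 and 5.88 lay under the 95th percentile of 1027 olfactory receptor genes (5.82, 5.94 and 5.89), a set with little known liver expression that served as background. The 3 rescue arrays lay above the 3 mutant arrays, a separation that 25.7% of all genes show in either direction, and the other groups overlapped. Rescue against mutant was 0.22 ± 0.12 (interval -0.03 to 0.47, adjusted p = 0.29), rescue against wild type 0.20 ± 0.12 (interval -0.05 to 0.44, 0.502), and mutant against wild type -0.03 ± 0.12 (interval -0.27 to 0.22, 0.901), all by limma. Arntl2 was not called in any of its 14 alternative settings for each comparison. Genes most like it were Rfx3 (Pearson r = 0.927), Fgd4 (0.899), Adh6-ps1 (0.892), Atxn7l1 (0.89) and Usp54 (0.887), chosen in the same way.

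Whether Clock and Arntl moved unequally was tested on the difference of their log2 values within each array. It was 2.29, 1.34 and 1.14 in wild type, 3.04, 2.01 and 2.77 in mutant, and 2.96, 2.07 and 2.14 in rescue. The group mean of this difference was 1.02 higher in mutant and 0.80 higher in rescue than in wild type. An exact permutation test over all 1680 assignments of the arrays to the groups gave p = 0.157, where 0.00357 is the smallest p possible. An unequal change of the genes was therefore not shown.

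Of 4 measured genes of receptors that act on ROR elements, Nr1d1 and Nr1d2 were called between groups, and Rora and Rorb were not. Rora, which encodes the ROR alpha activator, was at 9.33 ± 0.05 (SD), 9.26 ± 0.03 and 9.37 ± 0.03 in wild type, mutant and rescue (limma adjusted p = 0.52 or above in each comparison). The REV-ERB alpha gene Nr1d1 was at 9.74 ± 0.70, 8.95 ± 0.06 and 10.24 ± 0.37, and rose by 1.29 ± 0.26 (SE) in rescue against mutant (adjusted p = 0.0167). This rise was not called with a trended and robust prior, with all probe sets, or without mutant replicate 1 or rescue replicate 3. The REV-ERB beta gene Nr1d2 was at 9.58 ± 0.23, 8.40 ± 0.31 and 8.79 ± 0.25, and fell by 1.18 ± 0.17 in mutant (adjusted p = 4.08e-04) and by 0.79 ± 0.17 in rescue (0.0199), each against wild type. The fall in rescue was not called with all probe sets or without wild-type replicate 1 or rescue replicate 1 or 2. In mutant against wild type these 2 of the 4 fell, where 9.02% of all genes fell, but Nr1d1 (-0.80 ± 0.26, adjusted p = 0.0485) was called in only 5 of 15 settings. Rorb was dim, with group means of 4.53 to 4.70.

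Of 3 other measured genes with ROR elements, 2 rose in mutant against wild type and fell in rescue against mutant, where 6.37% of all genes rose and 1.2% fell. The repressor gene Nfil3 was at 7.68 ± 0.09 (SD), 9.18 ± 0.14 and 8.57 ± 0.18 in wild type, mutant and rescue. It stayed 0.89 ± 0.12 (SE) above wild type in rescue (limma adjusted p = 0.00103). The elongase gene Elovl3 was at 10.86 ± 0.30, 12.62 ± 0.05 and 11.11 ± 0.08, and its rescue level was not separated from wild type (0.25 ± 0.13, adjusted p = 0.426). Cry1, a repressor of CLOCK-BMAL1, was at 7.46 ± 0.28, 7.83 ± 0.14 and 7.45 ± 0.27 and did not pass. Set beside these, Arntl was near equal in wild type (7.91 ± 0.24) and mutant (7.83 ± 0.05) and lowest in rescue (7.40 ± 0.08), while Clock was highest in mutant (10.44 ± 0.50). The median difference of the 3 genes was that of Nfil3, 1.50 in mutant against wild type and -0.62 in rescue against mutant. The 3 genes ranged from 0.38 to 1.76 and from -1.50 to -0.38. Over all genes the medians were 0.07 and -0.05. The fall of Nfil3 in rescue against mutant was not called with all probe sets or without mutant replicate 1 or rescue replicate 2 or 3.

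**Figure D4:**
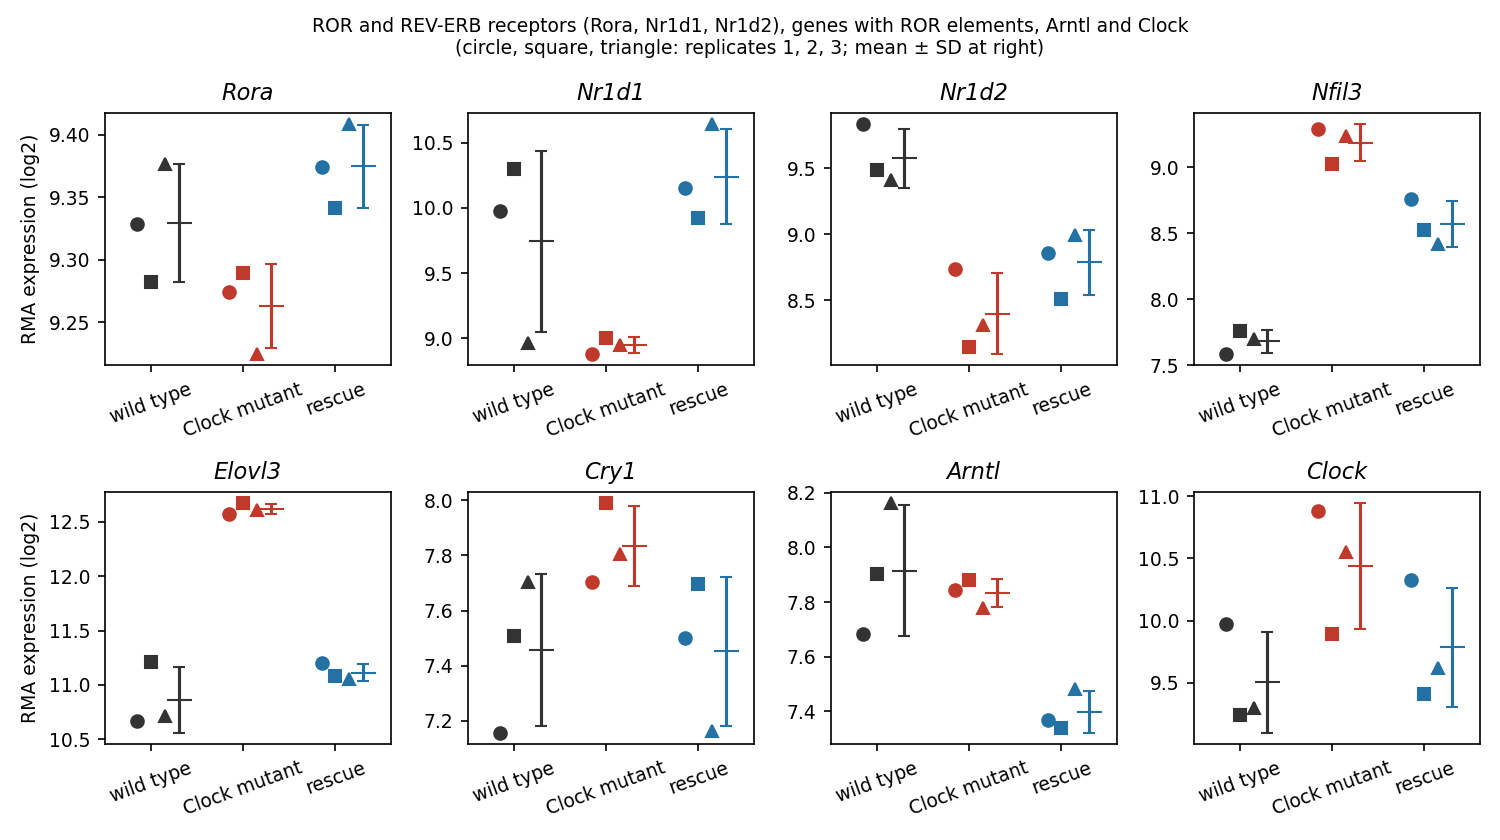
RMA expression on the log2 scale (vertical axis, scaled separately in each panel) of ROR and REV-ERB receptor genes, 3 genes with ROR elements, Arntl and Clock in each array by group; symbols mark replicates 1 to 3, with the mean ± SD at the right of each group. Nfil3 and Elovl3 are highest in mutant (9.18 and 12.62), and Arntl is lowest in rescue (7.40).

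Of 25 measured genes whose products modify CLOCK-BMAL1 or act with it, 9 fell in mutant against wild type, none rose and 16 did not pass, where 9.02% of all genes fell. The 25 lay outside the dimmest 40% of genes, where a larger share fell: 1946 when fitted alone, against 1798 of all 19938 genes. The median difference of the 25 was -0.07, beside 0.07 over all genes. The falls were Per1, Per2 and Ciart, which are also targets of CLOCK-BMAL1, and 6 genes of enzymes and coactivators. The acetyltransferase gene Ep300, which encodes p300, was at 9.02 ± 0.09 (SD) in wild type, 8.45 ± 0.08 in mutant and 8.90 ± 0.12 in rescue. It fell by 0.57 ± 0.11 (SE) in mutant against wild type (limma adjusted p = 0.00261) and rose by 0.46 ± 0.11 in rescue against mutant (0.0321). Leaving out any single array of the 6 compared, or fitting all probe sets, ended the call of the rise. The other acetyltransferase gene Kat2b (-0.51 ± 0.10), the kinase gene Gsk3b (-0.53 ± 0.11) and the deacetylase gene Sirt1 (-0.46 ± 0.11) fell in mutant (adjusted p = 0.00313, 0.00452 and 0.0108); Sirt1 was not called without wild-type replicate 1. The coactivator gene Ppargc1a (-0.38 ± 0.11, adjusted p = 0.0272) was called in 10 of 15 settings and the demethylase gene Kdm5a (-0.37 ± 0.12, adjusted p = 0.0453) in 4 of 15. The paralogous acetyltransferase gene Crebbp (-0.06 ± 0.12) and the kinase genes Csnk1d (0.14 ± 0.11) and Csnk1e (-0.03 ± 0.11) did not pass. In rescue against wild type 3 of the 25 fell, Per1, Per2 and Ciart, and none rose, where 1.35% of all genes fell. Ciart was called there in all 15 alternative settings, Per2 in 9 and Per1 in 7, and 1 to 3 of the list fell. In mutant against wild type Per1 was called in 10 of 15.

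Of 15 other genes of the bHLH-PAS family, 1 was called in mutant against wild type and in rescue against mutant, Hif1a in both, where 15.4% and 3.81% of all genes were called. The count is therefore no result about the family. Hif1a, the hypoxia factor gene, was at 9.60 ± 0.16 (SD) in wild type, 8.89 ± 0.10 in mutant and 9.38 ± 0.07 in rescue. It fell by 0.71 ± 0.11 (SE) in mutant against wild type (limma adjusted p = 7.38e-04) and rose by 0.49 ± 0.11 in rescue against mutant (0.0279). The rise was not called with all probe sets or without mutant replicate 1 or 2 or rescue replicate 2 or 3. Arnt, whose product pairs with HIF and AHR proteins (-0.15 ± 0.11), Epas1 (-0.22 ± 0.12), Ahr (0.12 ± 0.13) and the coactivator gene Ncoa3 (-0.34 ± 0.11, adjusted p = 0.0536) did not pass in mutant against wild type. No gene of this family was called in rescue against wild type, and 8 of the 15 lay outside the dimmest 40%. The family's median difference was 0.01 in mutant against wild type, beside 0.07 over all genes.

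Of 19 measured genes that CLOCK and BMAL1 activate, 15 fell in mutant against wild type and none rose, where 9.02% of all genes fell and 6.37% rose. In rescue against mutant 4 rose, Alas1, Wee1, Nr1d1 and Bhlhe41, and none fell, where 2.61% of all genes rose and 1.2% fell. With all probe sets 2 rose. The filter on the dimmest 40% left 17 of the 19, without Wee1 and Bhlhe41, and 2 of those rose. In rescue against wild type 11 fell and 1 rose, the heme synthesis gene Alas1, where 1.35% of all genes fell and 0.928% rose. Over the alternative settings 8 to 11 fell, and Alas1 was called in 11 of 15. The list was chosen with earlier results of these data known. The medians of the 19 were -0.87, 0.10 and -0.60, beside 0.07, -0.05 and 0.01 over all genes.

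The genes next to the members on the chromosome were read as a check on local changes. The 2 tested genes on each side of Clock were Srd5a3, Tmem165, Gm7467 and Pdcl2, with differences from -0.22 to 0.26 in mutant against wild type and none called by limma. Gm7467, a long noncoding RNA gene, overlaps the span of Clock, and was at 0.26 ± 0.12 (adjusted p = 0.143). Beside Arntl, none of Tead1, Rassf10, Btbd10 and Pth was called in rescue against wild type (-0.14 to -0.04). Beside Arntl2, none of Med21, Stk38l, Smco2 and Ppfibp1 was called in any comparison.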

How the data were processed

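Liver RNA of 9 mice was measured on 1-colour Affymetrix gene arrays. The authors deposited log2 expression values per probe set, made with RMA in Affymetrix Expression Console per the submitters' processing notes; the sources used here give no versions. RMA puts arrays on a common distribution, so a shift of most genes can be hidden, and differences of dim genes are understated. That the scale is log2 was inferred from the highest value, 13.86.

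Of 35556 probe sets, 21789 had 1 gene symbol, 1621 several and 12146 none. The probe set of highest mean was kept per gene. All 9 arrays were fitted together with limma 3.58.1 in R 4.3.3 (6 residual and 8.47 prior degrees of freedom). The model was tested on simulated data with independent noise for each gene and array. Deviations shared by many genes on an array, as described for Clock, were not simulated. Figures used matplotlib 3.10.9. Groups came from the labels. The p-values measure the spread between these animals, and the number of arrays limits the precision.

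Alternatives were a replicate block, a filter on the dimmest 40% of genes, repeated quantile normalization, centring on the median, array weights, a trended and robust prior, the 6 arrays compared, all probe sets, a loess trend on genomic span removed and leaving out each array. The plan was to name the members, their neighbours and the 5 genes most like each member. From 5 pathway lists it took up to 8 called genes per comparison, by smallest p. Not all of these are named above. Several called genes that CLOCK and BMAL1 activate appear only in counts, and the neighbours of Npas2 are left out. Other genes of these lists that are named (Kdm5a, Crebbp, Csnk1d, Csnk1e, Arnt, Epas1, Ahr, Ncoa3, Rora, Rorb and Cry1) were chosen after their values were seen, as were the alternatives for lists and single genes. The members and lists were chosen with earlier results of these data known. RefSeq (GRCm38.p6) gave spans, promoter windows for all 4 members and names.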

Additional observations from a re-analysis of the deposited data

How the results depend on the processing

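In mutant against wild type, the rise of Clock was not called with a trended and robust prior (0.94, adjusted p = 0.139) or all probe sets (0.94, 0.098), and leaving out 1 array gave 0.72 to 1.21. Arntl (-0.20 to 0.04) and Arntl2 (-0.10 to 0.08) changed sign without wild-type replicate 3 (0.0418 and 0.0808), and Arntl2 with array weights (0.0027). In rescue against mutant, Clock was called under the replicate block (-0.66, adjusted p = 0.0158) and with array weights (-0.82, 0.0454), and 1 array less gave -0.93 to -0.44. Arntl was called there without the dimmest 40% of genes (-0.44), with quantile normalization repeated (-0.47), a trended and robust prior (-0.44), the span trend removed (-0.47) and the 6 arrays alone (-0.44). In rescue against wild type, Arntl was not called with quantile normalization repeated (-0.49), all probe sets (-0.52) or the 6 arrays alone (-0.52), and 1 array less gave -0.63 to -0.39. The cause was not tested.

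The number of genes called between mutant and wild type was 3068, and 1695 to 2469 with 1 array less. Between rescue and mutant it was 759. It was 1178 without the dimmest 40%, 1210 with a trended and robust prior, 1334 with array weights, 292 of all probe sets, and 200 to 546 with 1 array less. Between rescue and wild type it was 454, and 711, 704 and 233 with the first, second and last of these settings, and 233 to 402 with 1 array less.

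Replicate numbers were not taken as pairs, since the labels do not say that a number pairs animals. Over all genes, the correlation of deviations was -0.11 to 0.19 between same-numbered arrays and -0.26 to 0.18 between the others. It was 0.07 to 0.19 among arrays numbered 1 or among those numbered 2, and -0.11 to 0.05 among those numbered 3. Between numbers 1 and 2 it was -0.26 to -0.06. Whether a number marks a shared condition was not tested. The deviations of Clock were above the group mean in arrays numbered 1, below it in those numbered 2 and of mixed sign in those numbered 3. The block lowered the SE of Clock from 0.26 to 0.12. With the replicate block the other members kept their side of the threshold in each comparison, and the test of Clock against Arntl gave p = 0.0556 (exact permutation within numbers, 0.157 without). Permutation within numbers allows fewer assignments than the 1680 without, so its p moves in coarser steps. Arntl2 is among the dimmest 40%, so it has no value without them. The planned tests of Clock and Arntl against Npas2 were not run, since Npas2 was not analysed here. Dim genes such as Arntl2 are limited by signal over background.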
